A study of Mus musculus with 56 samples.

Results

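The genes described are the receptor tyrosine kinases of the VEGF, TIE and FGF families, which ponatinib binds beside its main target BCR-ABL1, together with the ligand Vegfa. They are Kdr, Flt1, Flt4, Tek, Tie1, Fgfr1, Fgfr2, Fgfr3, Fgfr4 and Vegfa, 10 of the 45513 genes counted. They were chosen by name, as known drug targets and their ligand, with earlier results of these data known. All 10 were among the 14314 genes that passed the filter on low counts. Liver mRNA was sequenced from 56 female APOE*3Leiden.CETP mice, which carry human transgenes that give a human-like lipoprotein profile, 8 in each of 7 groups. The mice were 9 to 14 weeks of age when they entered the study, before the treatments began, and all ate a Western-type diet with 15% cacao butter and 0.15% cholesterol. Control mice received the vehicle, 5% carboxymethyl cellulose, by gavage. The kinase inhibitors were given for 16 weeks. Imatinib was given at 150 mg/kg in each of 2 gavages per day. Nilotinib at 10 or 30 mg/kg and ponatinib at 3 or 10 mg/kg were given in 1 drug gavage per day. In the study all groups but imatinib also had a second daily gavage that held vehicle only. The reference group drank the nitric oxide synthase inhibitor L-NAME at 0.12% to 0.20% in water and received vehicle by gavage. The transgenic line is a model of dyslipidemia and carries no leukemia, so BCR-ABL1 itself was absent.

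VEGF ligands are secreted proteins that bind the receptors FLT1 (VEGFR1), KDR (VEGFR2) and FLT4 (VEGFR3) on endothelial cells, where KDR carries most of the growth and survival signal, FLT1 binds VEGFA tightly and limits its supply to KDR, and FLT4 binds VEGFC and VEGFD. TEK (TIE2) binds the angiopoietins and keeps vessels quiescent, and TIE1 is its partner receptor. FGF receptors are found on many cell types, and in hepatocytes FGFR4 with its co-receptor KLB receives the intestinal hormone FGF15, which lowers bile acid synthesis. In liver the sinusoidal endothelium expresses the VEGF and TIE receptors, and hepatocytes are a major source of VEGFA. The drugs inhibit kinase activity of the proteins, which mRNA counts do not measure.

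The upstream sequences of 4 of the genes are shown because Vegfa, Fgfr3 and Kdr passed the test in at least 1 comparison, with Tek, which passed in none, as a receptor whose stretch holds neither of 2 short motifs. Flt4, which also passed, is named only, because its stretch lies inside the annotated gene. Each line gives 200 bases of RefSeq promoter sequence on GRCm38.p6, 5′ to 3′ on the strand of the gene, which end 50 bases before the RefSeq start site and lie outside the annotated gene. Vegfa is at chr17:46032428-46032627 (minus strand), Fgfr3 at chr5:33721474-33721673 (plus strand), Kdr at chr5:75978506-75978705 (minus strand) and Tek at chr4:94739039-94739238 (plus strand). Where RefSeq lists 2 starts, as for Vegfa and Fgfr3, the most upstream was taken. Capitals mark the GC box GGGCGG and the core letters of a hypoxia response element, ACGTG or GCGTG, on either strand, and no base belonged to both motifs.
Vegfa: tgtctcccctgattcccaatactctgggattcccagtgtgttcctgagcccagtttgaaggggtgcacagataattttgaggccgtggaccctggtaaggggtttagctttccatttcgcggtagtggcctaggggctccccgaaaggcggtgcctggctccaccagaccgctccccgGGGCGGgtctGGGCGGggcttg
Fgfr3: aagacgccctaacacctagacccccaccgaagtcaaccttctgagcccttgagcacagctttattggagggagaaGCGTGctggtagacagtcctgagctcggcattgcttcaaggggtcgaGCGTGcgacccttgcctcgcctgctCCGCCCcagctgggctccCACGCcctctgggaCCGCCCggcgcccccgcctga
Kdr: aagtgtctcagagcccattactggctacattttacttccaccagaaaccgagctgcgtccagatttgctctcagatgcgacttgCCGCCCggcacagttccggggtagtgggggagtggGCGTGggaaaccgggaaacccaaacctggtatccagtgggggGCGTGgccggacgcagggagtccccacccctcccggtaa
Tek: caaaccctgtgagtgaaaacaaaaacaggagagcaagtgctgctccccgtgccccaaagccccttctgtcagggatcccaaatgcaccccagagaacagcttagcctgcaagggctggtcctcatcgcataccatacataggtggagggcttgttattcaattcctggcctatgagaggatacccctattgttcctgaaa
The Vegfa stretch holds 2 GC boxes and 0 hypoxia cores, Fgfr3 holds 2 and 3, Kdr holds 1 and 2, and Tek holds none of either. Of 32851 RefSeq promoter stretches of the same length, 24.6% hold the GC box and 31.6% hold a hypoxia core. A match in these letters is a description of the sequence and no evidence of binding. Only these stretches were searched, so a count of 0 says nothing about the rest of a promoter.

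The depth, as reads assigned to genes, was 7570238 per mouse at the median and 5342379 at the lowest. L-NAME mouse 10 stood apart with 97473341, and the next deepest library had 17996732. The liver label was borne out by 10 hepatocyte markers, all detected in every group, whose summed level ranged from 74770 to 160600 CPM (counts scaled to a common library size with TMM normalization) over the mice. 3 libraries stood apart in endothelial genes. Ponatinib 10 mg/kg mouse 8 and ponatinib 3 mg/kg mouse 13 had the lowest and second lowest mean of 13 pan-endothelial markers of all 56 mice, 1.88 and 2.76 on the log2 CPM scale, while control mouse 46 had the highest level of all 5 VEGF and TIE receptors in its group. Ponatinib 10 mg/kg mouse 8 was also the lowest of its group, and below every control mouse, in the mean of 11 stellate cell markers (3.01 against a control minimum of 3.95) and of 9 fibroblast and smooth muscle markers (1.05 against 2.15). The share of uniquely aligned reads outside annotated genes ran from a mean of 7.97% in control to 11.0% with ponatinib 10 mg/kg and with L-NAME. For the 10 genes, results that rest on these libraries or move with this share are given with and without them. Of the genes in the further lists only F8 and Dusp6 have such a value here. The other calls in those lists come from the fit of all 56 mice without a covariate.

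Vegfa was the most abundant of the 10 transcripts per length in control liver, at 124 ± 14.4 TPM (counts scaled to gene length and to library size; SD, n = 8 mice). Fgfr4 followed at 45.9 ± 9.44 TPM, Fgfr3 at 23.4 ± 3.09 TPM and Fgfr2 at 15.9 ± 2.02 TPM. In the first 3 places no control mouse overlapped with the mice of the next gene in TPM. Among the endothelial receptors the TPM was 12.4 ± 5.97 for Kdr, 10.7 ± 3.80 for Tie1, 7.84 ± 4.56 for Flt4 and 6.92 ± 2.1 for Tek (SD, n = 8 mice), and these neighbours overlapped, as did Kdr with Fgfr2. Control mouse 46, at 24.4 TPM for Kdr, lay above all control mice for Fgfr2. Fgfr1 and Flt1 were lowest at 2.46 ± 0.675 and 2.14 ± 0.943 TPM, with as few as 6 reads on Flt1 in a single mouse, so their differences are the least precise.

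Vegfa (ENSMUSG00000023951, chromosome 17, 46016993 to 46032369, minus strand) rose with ponatinib 10 mg/kg, imatinib and L-NAME. Its level in control mice ranged from 155 to 261 CPM with a median of 191 CPM. With ponatinib 10 mg/kg the lowest, median and highest mice had 248, 342 and 453 CPM, so 7 of 8 mice lay above every control mouse. The log2 fold change was 0.85 (SE 0.15, adjusted p = 8.84e-05 by edgeR's quasi-likelihood test), a 1.80-fold higher level. With imatinib the lowest, median and highest levels were 199, 308 and 389 CPM, and 5 of 8 mice were above all control mice (log2 fold change 0.55, SE 0.15, adjusted p = 0.0112). With L-NAME they were 183, 307 and 368 CPM, again with 5 of 8 mice above the control range (log2 fold change 0.52, SE 0.15, adjusted p = 0.0145).

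The other doses gave smaller differences of Vegfa that did not pass adjustment by edgeR. With ponatinib 3 mg/kg the lowest, median and highest mice had 231, 271 and 348 CPM, all 8 mice above the control mean and 4 above the control range (log2 fold change 0.47, SE 0.15, unadjusted p = 0.00279, adjusted p = 0.239, and 0.0269 by limma-voom with quality weights, the only 1 of 15 alternatives past the threshold). Nilotinib 10 mg/kg gave 165, 235 and 323 CPM, and nilotinib 30 mg/kg gave 161, 230 and 301 CPM, both overlapping widely with control (log2 fold changes 0.27 and 0.24). By group mean the order of the level was control, nilotinib 30, nilotinib 10, ponatinib 3, L-NAME, imatinib and ponatinib 10 mg/kg. All these comparisons share the same 8 control mice.

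Compared directly, Vegfa was 1.53-fold higher with ponatinib 10 mg/kg than with nilotinib 30 mg/kg (log2 difference 0.61, SE 0.15, adjusted p = 0.0171), and 7 of 8 ponatinib mice lay above every nilotinib mouse. The difference from imatinib was 0.30 (approximate 95% interval 0.01 to 0.59, adjusted p = 0.464) and that between the ponatinib doses 0.38 (0.09 to 0.68, adjusted p = 0.189), neither past the threshold. The interval between the nilotinib doses lay around 0, with a log2 difference of -0.03 (-0.32 to 0.27). The doses of different drugs are not matched, so these contrasts compare treatments as given.

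**Figure D1:**
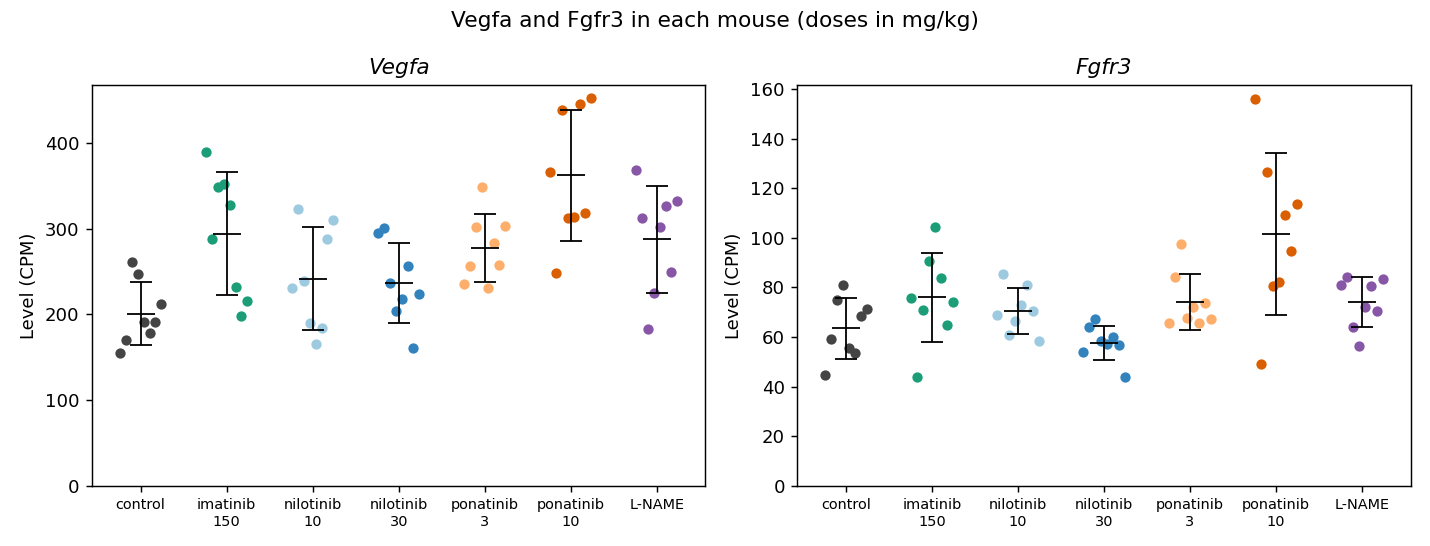
Level of Vegfa (left) and Fgfr3 (right) in CPM in each of 56 mice, by group with doses in mg/kg. Points are mice, long bars the mean and whiskers the SD of 8 mice. Vegfa with ponatinib 10 mg/kg lies between 248 and 453 CPM against 155 to 261 CPM in control, and Fgfr3 in that group spreads from 48.9 to 156 CPM.

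The share of all tested genes called at an adjusted p below 0.05 gives the background for the count of these 10 genes. Ponatinib 10 mg/kg changed 2 of the 10, Vegfa and Fgfr3, both higher, where 13.1% of all genes were called. Imatinib and L-NAME each changed 1 of the 10, Vegfa, where 10.3% and 11.8% of all genes were called. Nilotinib changed none of the 10 at either dose by edgeR, with 1.41% of all genes called at the low dose and 5.77% at the high dose, and ponatinib 3 mg/kg none, with 0.0419% called. At an unadjusted p below 0.05 the count with imatinib was 1 (23.5% of all genes), with nilotinib 10 mg/kg 1 (14.2%), with nilotinib 30 mg/kg 0 (18.7%), with ponatinib 3 mg/kg 5 (9.96%), with ponatinib 10 mg/kg 5 (25.8%) and with L-NAME 1 (24.2%). At an unadjusted p below 0.01, the cut-off used in the study, Kdr, Flt4 and Vegfa passed with ponatinib 3 mg/kg, 3 of the 10 where 3.14% of all genes did. The other counts at that cut-off were 1 with imatinib (12.9% of all genes), 0 with nilotinib 10 mg/kg (5.97%) and 30 mg/kg (9.35%), 2 with ponatinib 10 mg/kg (15%) and 1 with L-NAME (14%). For ponatinib 3 mg/kg DESeq2 and limma-voom also called 0 of the 10, and limma-voom with quality weights called 4, Kdr, Flt4, Tek and Vegfa. For nilotinib DESeq2 and both limma fits called 0 at either dose. The counts at the adjusted threshold are 0 to 2 of 10 and show nothing particular to these genes.

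**Figure D2:**
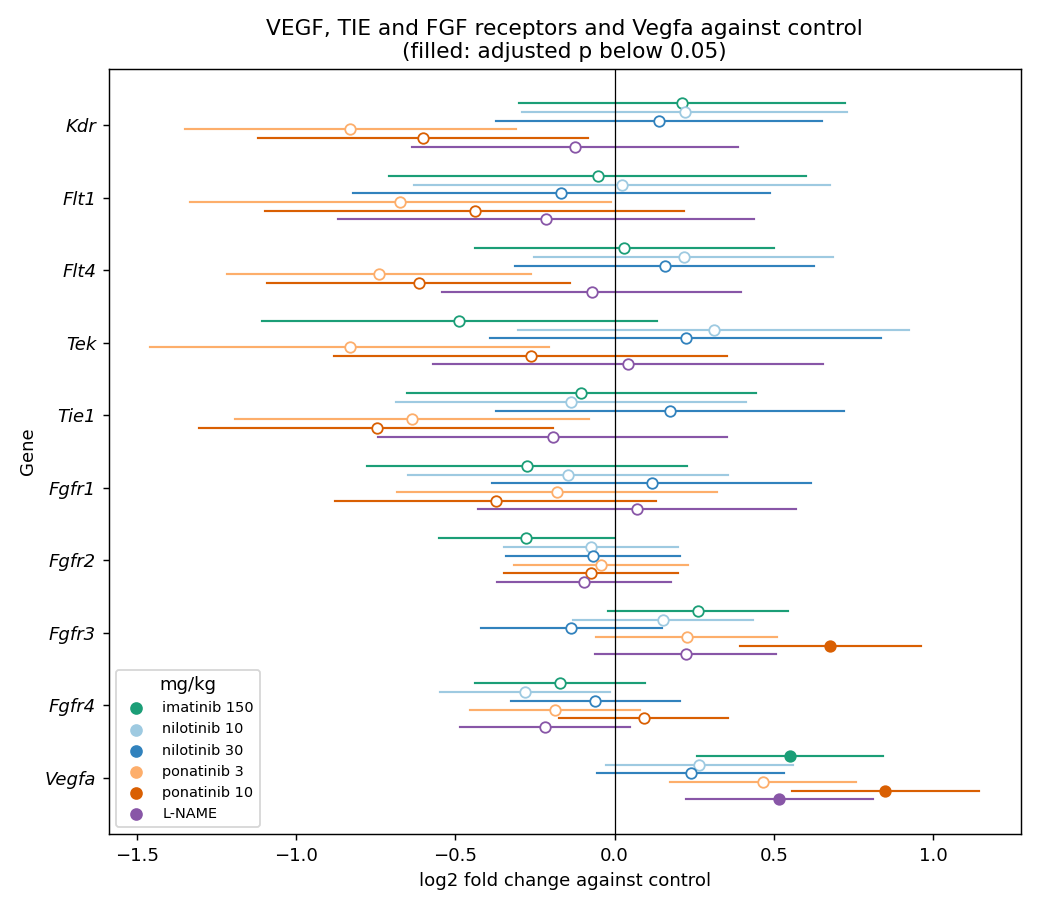
log2 fold change of each of the 10 genes (vertical axis) against control, by treatment (colours, doses in mg/kg). Points are edgeR estimates with approximate 95% intervals (1.96 SE), filled where the adjusted p is below 0.05. Filled points are Vegfa with imatinib, ponatinib 10 mg/kg and L-NAME (0.55, 0.85 and 0.52) and Fgfr3 with ponatinib 10 mg/kg (0.68), and the 5 upper receptors lie below 0 at both ponatinib doses.

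Of the other VEGF ligands, Vegfb was higher with the same treatments as Vegfa and Vegfc was lower with imatinib. Of 5 tested genes in a list of further VEGF ligands and co-receptors, Vegfb, which binds FLT1, rose with imatinib, ponatinib 10 mg/kg and L-NAME. Its level was 16.3 CPM on average in control, 25.6 CPM with imatinib, 27.2 CPM with ponatinib 10 mg/kg and 25.2 CPM with L-NAME (log2 fold changes 0.66, 0.74 and 0.63, adjusted p = 0.0415, 0.0157 and 0.0446 by edgeR). Vegfc, the ligand of FLT4, fell with imatinib from 6.85 to 3.33 CPM (log2 fold change -1.04, SE 0.33, adjusted p = 0.0298). Vegfd and the co-receptors Nrp1 and Nrp2 passed the test in no comparison with control (0.0419% to 13.1% of all genes called). The median log2 fold change of the 5 genes ran from -0.29 with ponatinib 3 mg/kg to 0.18 with nilotinib 10 mg/kg, and that of all genes from -0.02 to 0.03 over the 6 comparisons.

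The VEGF and TIE receptors were measured at lower levels with ponatinib than in control, but none passed adjustment over all genes by edgeR or DESeq2. limma-voom called Kdr and Tie1 with ponatinib 10 mg/kg, and with quality weights it called Kdr, Flt4 and Tek at the low dose and Kdr, Flt4 and Tie1 at the high dose. With ponatinib 3 mg/kg all 5 had negative log2 fold changes, from -0.83 to -0.64, and 4 of 5 an unadjusted p below 0.05. With ponatinib 10 mg/kg all 5 were again negative, from -0.75 to -0.26, and 3 of 5 had such a p. The lowest adjusted p among the 5 by edgeR was 0.237 at the low dose and 0.0684 at the high dose. With imatinib, nilotinib 10, nilotinib 30 mg/kg and L-NAME 3, 1, 1 and 4 of the 5 were negative, and none had an unadjusted p below 0.05. In whole liver, fewer endothelial cells and less RNA of a gene per cell cannot be told apart.

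Kdr (ENSMUSG00000062960, chromosome 5, 75932827 to 75978458, minus strand) had a lowest, median and highest level of 21.2, 35.5 and 82.6 CPM in control mice. With ponatinib 3 mg/kg it was 6.25, 22.5 and 38.5 CPM (log2 fold change -0.83, SE 0.27, unadjusted p = 0.00271, adjusted p = 0.237). With ponatinib 10 mg/kg it was 3.90, 29.2 and 42.2 CPM (log2 fold change -0.60, SE 0.26, adjusted p = 0.126). The groups overlapped, and only 2 mice at the low dose and 3 at the high dose lay below every control mouse.

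Flt4 (ENSMUSG00000020357, chromosome 11, 49609263 to 49652739, plus strand) ranged in control from 9.02 to 53.8 CPM with a median of 21.8 CPM. Ponatinib 3 mg/kg gave 11.2, 12.6 and 24.3 CPM as the lowest, median and highest level (log2 fold change -0.74, SE 0.24, adjusted p = 0.261), and ponatinib 10 mg/kg gave 2.51, 17.6 and 19.5 CPM (log2 fold change -0.62, SE 0.24, adjusted p = 0.082). All 8 mice at the high dose were below the control mean, which control mouse 46 raised. Flt1 (ENSMUSG00000029648, chromosome 5, 147561604 to 147726011, minus strand) had medians of 9.66 CPM in control, 6.77 CPM with ponatinib 3 mg/kg and 7.56 CPM with ponatinib 10 mg/kg, with 4 mice of each ponatinib group below every control mouse (adjusted p = 0.505 and 0.443).

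Of the TIE receptors, Tie1 (ENSMUSG00000033191, chromosome 4, 118471191 to 118490061, minus strand) had a lowest, median and highest level of 13.0, 17.2 and 32.1 CPM in control. These were 5.00, 13.2 and 20.1 CPM with ponatinib 3 mg/kg and 1.95, 11.4 and 18.1 CPM with ponatinib 10 mg/kg, where 5 of 8 mice lay below every control mouse (log2 fold change -0.75, SE 0.28, adjusted p = 0.0684). Tek (ENSMUSG00000006386, chromosome 4, 94739289 to 94874976, plus strand) ranged from 8.35 to 19.6 CPM in control with a median of 11.4 CPM. With ponatinib 3 mg/kg it was 1.11, 7.52 and 12.2 CPM (log2 fold change -0.83, SE 0.32, adjusted p = 0.33), and with ponatinib 10 mg/kg 2.97, 10.9 and 20.1 CPM (log2 fold change -0.26, adjusted p = 0.664). With imatinib Tek was 3.07, 9.44 and 13.6 CPM, and 3 of 8 mice lay below the control range (log2 fold change -0.49, adjusted p = 0.372).

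**Figure D3:**
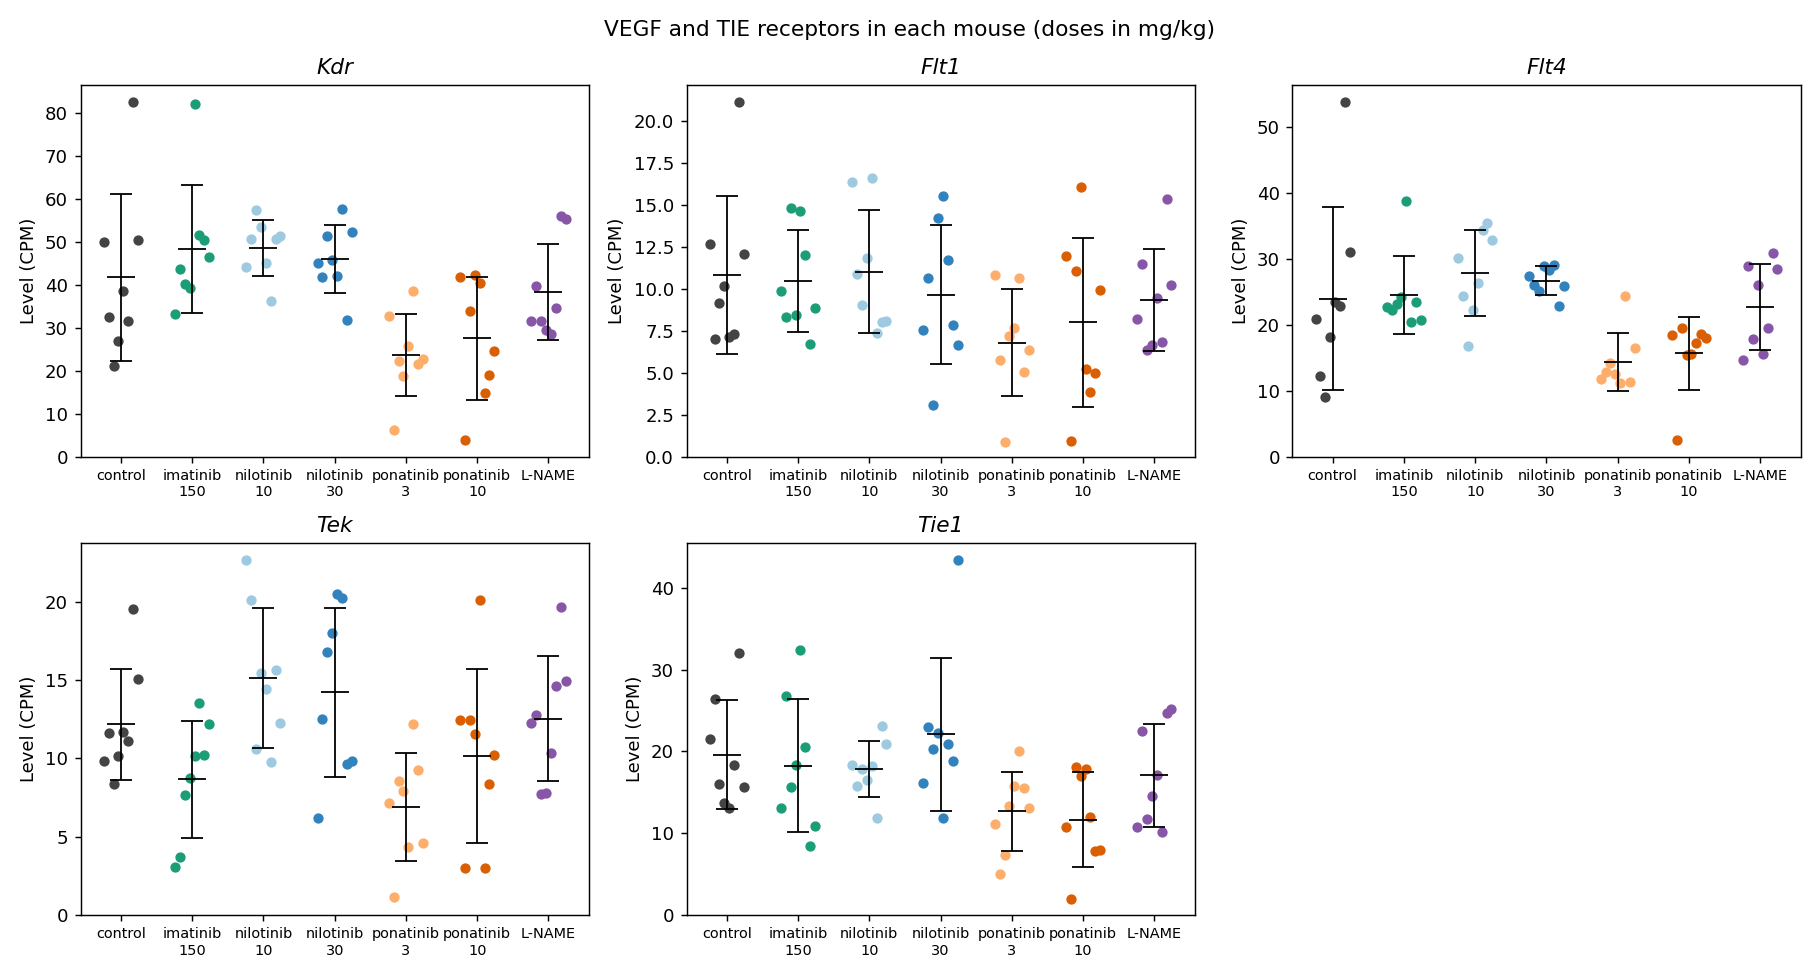
Level of Kdr, Flt1, Flt4, Tek and Tie1 in CPM in each of 56 mice, by group with doses in mg/kg. Points are mice, long bars the mean and whiskers the SD of 8 mice. The control mouse at the top of each panel is the same animal (Kdr 82.6 CPM, Flt4 53.8 CPM), and in the ponatinib 10 mg/kg group the lowest mouse is at 3.90 CPM for Kdr and 2.51 CPM for Flt4.

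The receptor differences from control were smaller without the libraries that stand apart, an alternative chosen after the data were seen. Without control mouse 46 the log2 fold change with ponatinib 3 mg/kg was -0.62 for Kdr and -0.47 for Flt4 (adjusted p = 0.486 and 0.574), and with ponatinib 10 mg/kg it was -0.39 and -0.34 (adjusted p = 0.388 and 0.399). Without ponatinib 10 mg/kg mouse 8 it was -0.43 for Kdr, -0.45 for Flt4 and -0.58 for Tie1 in that group (adjusted p = 0.236, 0.163 and 0.139). Without ponatinib 3 mg/kg mouse 13 Kdr was at -0.68 and Tek at -0.66 (adjusted p = 0.351 and 0.486). The direction was the same in each of these fits. With the share of reads outside genes as a covariate every VEGF and TIE receptor differed more from control at each ponatinib dose, and none passed the threshold. With ponatinib 10 mg/kg the log2 fold change was then -1.052 for Tie1, -0.845 for Flt4 and -0.739 for Kdr (edgeR, adjusted p = 0.0726, 0.0938 and 0.218). Tek and Flt1 were at -0.543 and -0.614. Every mouse at the high dose had a larger share than every control mouse, so this fit cannot separate share from treatment there. With ponatinib 3 mg/kg Kdr was at -0.858 and Flt4 at -0.788 (adjusted p = 0.251 and 0.244).

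Sinusoidal endothelial markers were lower with ponatinib beside the receptors, while pan-endothelial markers were mixed. Of 13 pan-endothelial markers 9 and 8 had negative log2 fold changes at the low and high ponatinib dose (medians -0.21 and -0.29). None of them passed the test at these doses, where 0.0419% and 13.1% of all genes were called. Their summed level had a median of 249 CPM in control, 223 CPM with ponatinib 3 mg/kg and 247 CPM with ponatinib 10 mg/kg. The summed level of the 13 pan-endothelial markers, none of them at 0 in any group, ranged from 160 to 374 CPM in control mice, from 152 to 300 CPM with ponatinib 3 mg/kg and from 94.4 to 329 CPM with ponatinib 10 mg/kg, but from 304 to 377 CPM with nilotinib 30 mg/kg. Of 12 sinusoidal endothelial markers all 12 had negative log2 fold changes at each ponatinib dose (medians -0.45 and -0.41, all genes -0.01 and -0.01), while 11 of 12 were positive at each nilotinib dose (medians 0.35 and 0.33, all genes 0.01 and 0.03). Only F8, which encodes a coagulation factor made by sinusoidal endothelium, passed the test among the 12, and fell with ponatinib 10 mg/kg from 9.05 to 4.71 CPM (log2 fold change -0.94, adjusted p = 0.0474, and 0.0861 without mouse 8). Egfl7, a secreted endothelial protein, rose with imatinib, both nilotinib doses and L-NAME (log2 fold changes 0.66, 0.77, 1.01 and 0.89, adjusted p = 0.0248, 0.0367, 0.00125 and 0.00175), and Ushbp1 with nilotinib 30 mg/kg and L-NAME. Of 11 venous and arterial endothelial markers 11 and 10 were negative at the ponatinib doses, and none passed the test (0.0419% and 13.1% of all genes called).

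Some markers of fibroblasts and smooth muscle fell with ponatinib too. Of 9 fibroblast and smooth muscle markers 7 and 5 were negative at the low and high dose (medians -1.50 and -0.26, all genes -0.01 and -0.01). By edgeR 2 and 3 of these markers fell, where 0.0419% and 13.1% of all genes were called. Of 11 stellate cell markers 7 and 8 were negative (medians -0.25 and -0.40), none fell by the test and 1 rose at the high dose. The part of these cells in the receptor values was not tested.

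Set against the mean of the pan-endothelial markers in the same mouse, Kdr, Flt4 and Tie1 were still lowest on average in the ponatinib groups. The log2 level of Kdr above that mean was 1.69 ± 0.34 in control, 1.06 ± 0.55 and 1.26 ± 0.63 in the low and high ponatinib groups, and 1.75 ± 0.39 and 1.48 ± 0.25 in those of nilotinib (SD, n = 8 mice). For Flt4 it was 0.82 ± 0.48, 0.45 ± 0.37 and 0.56 ± 0.50 in control and the ponatinib groups. For Tie1 it was 0.66 ± 0.44, 0.21 ± 0.46 and 0.09 ± 0.53 in control and the ponatinib groups. The L-NAME group was close to the ponatinib groups for Tie1, at 0.23 ± 0.30. Tek and Flt1 did not share this order. Tek was at -0.11 with ponatinib 10 mg/kg against -0.65 with imatinib and -0.29 with nilotinib 30 mg/kg, and Flt1 was lowest with nilotinib 30 mg/kg (-0.87). The marker mean itself ran from 3.24 with ponatinib 10 mg/kg to 4.03 with nilotinib 30 mg/kg, against 3.58 in control, so these values also move with it. In CPM the group means of Tek and Flt1 were 14.2 and 9.65 with nilotinib 30 mg/kg against 12.2 and 10.8 in control. With this mean as a covariate the log2 fold change of Kdr was -0.52 with ponatinib 3 mg/kg and -0.27 with 10 mg/kg (adjusted p = 0.311 and 0.422), and that of Flt4 was -0.37 and -0.23 (adjusted p = 0.513 and 0.482). Tek with ponatinib 10 mg/kg was then at 0.01. That of Tie1 with ponatinib 10 mg/kg was -0.51 (adjusted p = 0.14).

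**Figure D4:**
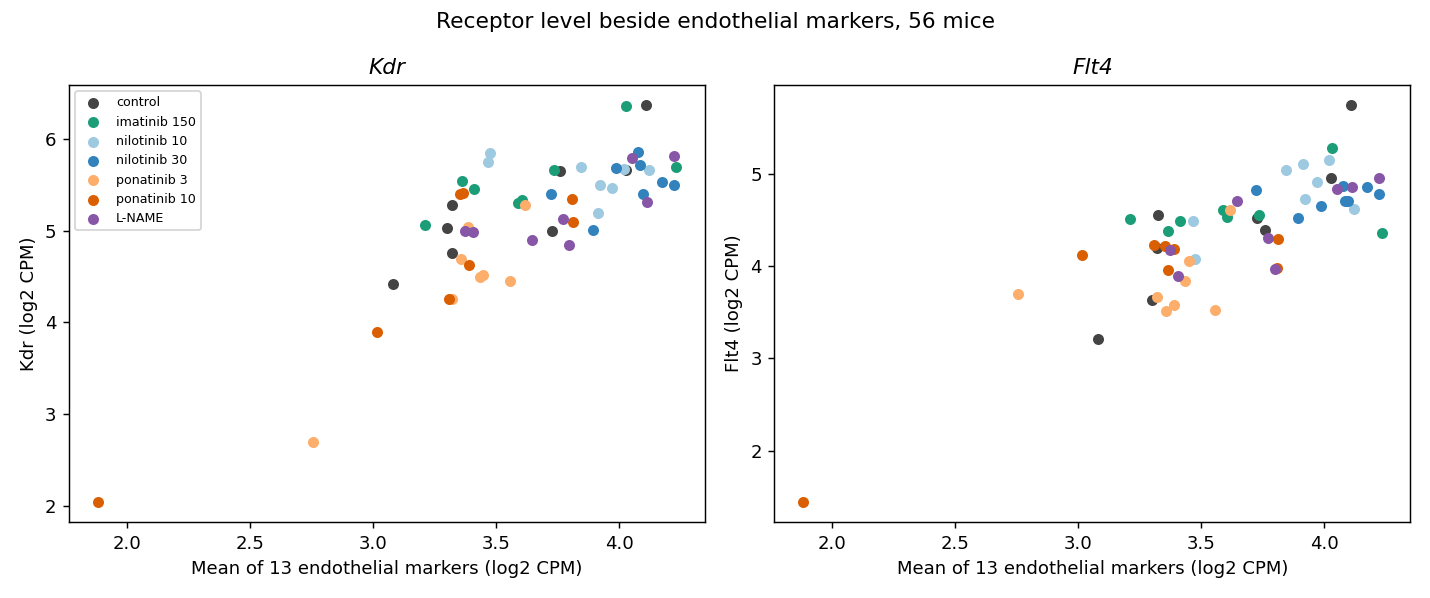
log2 CPM of Kdr (left) and Flt4 (right) against the mean log2 CPM of 13 pan-endothelial markers in each of 56 mice, coloured by group. Ponatinib 10 mg/kg mouse 8 is the point at a marker mean of 1.88 and ponatinib 3 mg/kg mouse 13 the point at 2.76, and both lie at the lower left for Kdr.

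Kdr and Flt4 differed between ponatinib and nilotinib when the low doses were compared directly. Kdr averaged 23.6 ± 9.55 CPM in mice on ponatinib 3 mg/kg against 48.6 ± 6.57 CPM in mice on nilotinib 10 mg/kg (SD, n = 8 each), and 7 of 8 ponatinib mice lay below every nilotinib mouse (log2 difference -1.05, SE 0.27, adjusted p = 0.0283). Flt4 was 14.3 ± 4.40 against 27.8 ± 6.53 CPM, with 7 of 8 mice below (log2 difference -0.96, SE 0.24, adjusted p = 0.0289). Tek was 6.88 ± 3.45 against 15.1 ± 4.48 CPM and just missed the threshold (log2 difference -1.14, SE 0.32, adjusted p = 0.0512). Flt1 and Tie1 differed by -0.70 and -0.50 (adjusted p = 0.337 and 0.439). The called genes were 2 of 10 genes, where 1.4% of all genes were called. With the endothelial marker mean as a covariate the log2 difference was -0.55 for Kdr and -0.40 for Flt4, neither past the threshold (adjusted p = 0.213 and 0.445). With the share of reads outside genes as a covariate it was -1.003 and -0.881 (adjusted p = 0.0553 and 0.0662), and without ponatinib 3 mg/kg mouse 13 it was -0.90 and -0.93 (adjusted p = 0.0616 and 0.0518).

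At the high doses Kdr, Flt4 and Tie1 were at lower levels with ponatinib 10 than with nilotinib 30 mg/kg, short of the threshold by edgeR. Flt4 was 15.6 ± 5.50 against 26.7 ± 2.13 CPM (SD, n = 8 mice), and all 8 ponatinib mice lay below every nilotinib mouse and below every imatinib mouse (log2 differences -0.77 and -0.65, adjusted p = 0.0824 and 0.244). Tie1 differed by -0.92 (SE 0.29, adjusted p = 0.0749) and Kdr by -0.74 (SE 0.26, adjusted p = 0.144). DESeq2 called Flt4 and Tie1, limma-voom all 3 and limma-voom with quality weights Kdr and Flt4. With the endothelial marker mean as a covariate the log2 difference was -0.01 for Flt4, -0.15 for Tie1 and 0.09 for Kdr, and 0.35 for Flt1 and 0.26 for Tek, none past the threshold. With the share of reads outside genes as a covariate Tie1 passed (-1.002, adjusted p = 0.0467). In this comparison 2 of the 10 genes passed by edgeR, Vegfa and Fgfr3, where 1.88% of all genes were called. None of the 10 passed by edgeR between ponatinib 10 mg/kg and imatinib (1.08% of all genes called), between imatinib and nilotinib 30 mg/kg (3.59%), between the ponatinib doses (1.39%) or between the nilotinib doses (0%).

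At an unadjusted p below 0.05, 5 of the 10 genes passed between ponatinib 10 mg/kg and imatinib (10.7% of all genes), 5 between ponatinib 10 and nilotinib 30 mg/kg (13.6%) and 4 between ponatinib 3 and nilotinib 10 mg/kg (14%). The count was 3 between imatinib and nilotinib 30 mg/kg (15.9%), 3 between the ponatinib doses (14.4%) and 0 between the nilotinib doses (5.67%). At an unadjusted p below 0.01 it was, in the same order, 2 (4.09%), 5 (5.64%), 3 (5.68%), 1 (7.55%), 1 (5.78%) and 0 (1.32%). The 5 genes between ponatinib 10 and nilotinib 30 mg/kg were Kdr, Flt4, Tie1, Fgfr3 and Vegfa, with Kdr, Flt4 and Tie1 lower and Fgfr3 and Vegfa higher with ponatinib.

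Among 4 tested ligands and partners of the TIE receptors, Svep1, an extracellular matrix protein that binds TIE1, fell with imatinib from 3.86 to 0.341 CPM (log2 fold change -3.41, SE 0.92, adjusted p = 0.011). Its log2 fold change was -1.52 with ponatinib 3 mg/kg and -1.43 with ponatinib 10 mg/kg, neither past the threshold. Angpt1 and Angpt2, the angiopoietins, and Ptprb, the endothelial phosphatase that acts on TEK, passed in no comparison with control (0.0419% to 13.1% of all genes called). Ptprb was 50.8 CPM in control and 34.6 CPM with ponatinib 3 mg/kg (log2 fold change -0.56, adjusted p = 0.346). Collagen genes of fibroblasts and stellate cells were lower beside Svep1, with Col1a1 at 101 CPM in control and 12.5 CPM with imatinib (log2 fold change -3.03, adjusted p = 3.7e-05), and the part of these cells in the Svep1 result was not tested.

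Of the 4 FGF receptors only Fgfr3 passed the test. Fgfr3 (ENSMUSG00000054252, chromosome 5, 33721674 to 33737068, plus strand) had a lowest, median and highest level of 44.5, 63.7 and 80.8 CPM in control and 48.9, 102 and 156 CPM with ponatinib 10 mg/kg. It rose 1.60-fold in that group (log2 fold change 0.68, SE 0.15, adjusted p = 0.000949), and 6 of 8 mice lay above every control mouse, while mouse 8 was the lowest. Ponatinib 3 mg/kg gave 65.5, 69.8 and 97.3 CPM, all 8 mice above the control mean (log2 fold change 0.23, adjusted p = 0.636). With imatinib it was 44.0, 75.0 and 104 CPM, with L-NAME 56.2, 76.5 and 84.0 CPM, with nilotinib 10 mg/kg 58.3, 69.6 and 85.3 CPM and with nilotinib 30 mg/kg 44.1, 57.7 and 67.3 CPM, none past the threshold.

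Fgfr3 was 1.76-fold higher with ponatinib 10 than with nilotinib 30 mg/kg, with 7 of 8 mice above every nilotinib mouse (log2 difference 0.81, SE 0.15, adjusted p = 0.00121). Between the ponatinib doses the log2 difference was 0.45 (SE 0.15, adjusted p = 0.0976), and without mouse 8 it passed the threshold (0.56, adjusted p = 0.0179). Reads of its pseudogene Fgfr3-ps on chromosome 1 numbered at most 27 per mouse, and reads with several alignments were left out of the counts.

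Vegfa and Fgfr3 both moved with the share of reads outside genes, which also differed between the groups. The share was 7.55% to 8.67% in control mice and 8.16% to 14.1% with imatinib. With ponatinib 10 mg/kg it was 8.89% to 15.2% and with L-NAME 8.81% to 16.8%, without overlap with control. For these last groups against control, share and treatment cannot be told apart, and a covariate fit cannot separate them. Within groups Pearson's r with this share was 0.43 for Vegfa and 0.42 for Fgfr3 over 56 mice (Spearman's rho 0.52 and 0.39, descriptive). In a fit with this share as a covariate Vegfa was still past the threshold with ponatinib 10 mg/kg (log2 fold change 0.58, adjusted p = 0.0374). Fgfr3 with ponatinib 10 mg/kg was then at 0.41 (adjusted p = 0.161), Vegfa with imatinib at 0.36 (adjusted p = 0.169) and Vegfa with L-NAME at 0.26 (adjusted p = 0.496). The part of this share in these results was not otherwise tested.

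Fgfr1 (ENSMUSG00000031565, chromosome 8, 25513654 to 25575718, plus strand), Fgfr2 (ENSMUSG00000030849, chromosome 7, 130162451 to 133123350, minus strand) and Fgfr4 (ENSMUSG00000005320, chromosome 13, 55152640 to 55168759, plus strand) passed the test in none of the 12 comparisons. Fgfr2, which is found in biliary and mesenchymal cells among others, was 61.7 ± 6.56 CPM in control and 50.9 ± 8.26 CPM with imatinib (SD, n = 8 mice, log2 fold change -0.28, approximate 95% interval -0.55 to -0.00, adjusted p = 0.218). The other group means of Fgfr2 lay between 57.6 and 59.9 CPM. Fgfr4, the hepatocyte receptor of FGF15, ranged in group mean from 50.0 CPM with nilotinib 10 mg/kg to 64.8 CPM with ponatinib 10 mg/kg, against 60.9 ± 12.1 CPM in control. Fgfr1 ranged from 6.96 CPM with ponatinib 10 mg/kg to 9.80 CPM with nilotinib 30 mg/kg, against 9.03 ± 1.89 CPM in control, and its interval with ponatinib 10 mg/kg was -0.88 to 0.13 on the log2 scale.

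Of the FGF ligands and co-receptors 5 could be tested. Klb, the co-receptor of FGFR4, fell with L-NAME from 38.6 to 20.3 CPM (log2 fold change -0.93, SE 0.26, adjusted p = 0.0127). It was 21.6 CPM with nilotinib 10 mg/kg, 22.6 CPM with nilotinib 30 mg/kg and 24.2 CPM with ponatinib 10 mg/kg, short of the threshold (adjusted p = 0.0834, 0.0687 and 0.0794). Fgf1, Fgf2, Fgf21 and the decoy receptor Fgfrl1 passed in no comparison with control (0.0419% to 13.1% of all genes called). Among 8 genes of bile acid synthesis, transport and regulation, Cyp8b1, which sets the cholic acid share, fell with L-NAME from 181 to 95.7 CPM (log2 fold change -0.92, adjusted p = 0.00805). Cyp27a1, of the alternative synthesis pathway, rose with imatinib from 384 to 504 CPM (log2 fold change 0.39, adjusted p = 0.0179). These were 1 of 8 genes each, where 11.8% and 10.3% of all genes were called. None of the 8 passed at either dose of nilotinib (1.41% and 5.77% of all genes called) or ponatinib (0.0419% and 13.1%).

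Genes that report receptor signalling through ERK showed 1 call among 15 tested with ponatinib 10 mg/kg, where 13.1% of all genes were called, and 0 with the other treatments by edgeR. Dusp6, the phosphatase that ERK activity induces and that dampens ERK, fell with ponatinib 10 mg/kg from 109 to 68.9 CPM (log2 fold change -0.66, SE 0.20, adjusted p = 0.0231, and 0.327 with the share of reads outside genes as a covariate). It was 76.1 CPM with L-NAME (log2 fold change -0.52, adjusted p = 0.0897). The median log2 fold change of the 15 genes was -0.37 with ponatinib 10 mg/kg, where 11 were negative, and -0.08 with ponatinib 3 mg/kg (all genes -0.01 and -0.01). Of 8 VEGF-responsive endothelial genes none passed in any comparison with control, where 0.0419% to 13.1% of all genes were called. Their medians with ponatinib 3 and 10 mg/kg were -0.23 and -0.40.

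Hypoxia-inducible genes did not rise as a group beside Vegfa. Of 12 tested, Bnip3, a mitophagy receptor, rose with imatinib from 97.1 to 176 CPM (log2 fold change 0.86, adjusted p = 0.0081) and with ponatinib 10 mg/kg to 162 CPM (log2 fold change 0.74, adjusted p = 0.0204). No other gene of the 12 passed with any treatment, and 10.3% and 13.1% of all genes were called with imatinib and ponatinib 10 mg/kg. The median of the 12 was -0.06 with imatinib, -0.28 with ponatinib 10 mg/kg and -0.21 with L-NAME (all genes -0.02, -0.01 and 0.02), the treatments with which Vegfa rose.

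Within groups, after each group mean was subtracted, the VEGF and TIE receptors varied together from mouse to mouse. Over 56 mice Pearson's r among the 5 endothelial receptors ran from 0.37 to 0.72 in 10 pairs, with a median of 0.53. Without the mice of lowest endothelial marker level, ponatinib 10 mg/kg mouse 8 and ponatinib 3 mg/kg mouse 13, it ran from 0.14 to 0.59. Among the 4 FGF receptors r ran from -0.05 to 0.20, and between the endothelial receptors and Vegfa from 0.01 to 0.20. These correlations are descriptions over mice that share library depth and cell composition.

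The genes most like each VEGF and TIE receptor in this sense were largely endothelial. For Kdr they were Aqp1, Dnase1l3 and Ptprb (r 0.88, 0.86 and 0.83), and for Flt4 Aqp1, Eng and Gimap6 (r 0.81, 0.79 and 0.79). Tie1 was most like Clec4g, Ehd3 and Kdr (r 0.79, 0.73 and 0.72), Tek like Kdr, Gpr182 and Gm45837 (r 0.72, 0.65 and 0.64) and Flt1 like Clec4g, Eng and Fam122b (r 0.65, 0.63 and 0.62). Vegfa was most like Mpc2, Sod1 and Fabp1 (r 0.83, 0.81 and 0.80), which are genes abundant in hepatocytes. The highest r was 0.64 for Fgfr1 (Aldoart1, then Nckipsd and Amn1), 0.60 for Fgfr3 (Ttc14, then Nisch and Myo7a) and 0.61 for Fgfr4 (Ngly1, then Adh4 and Tmem173).

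**Figure D5:**
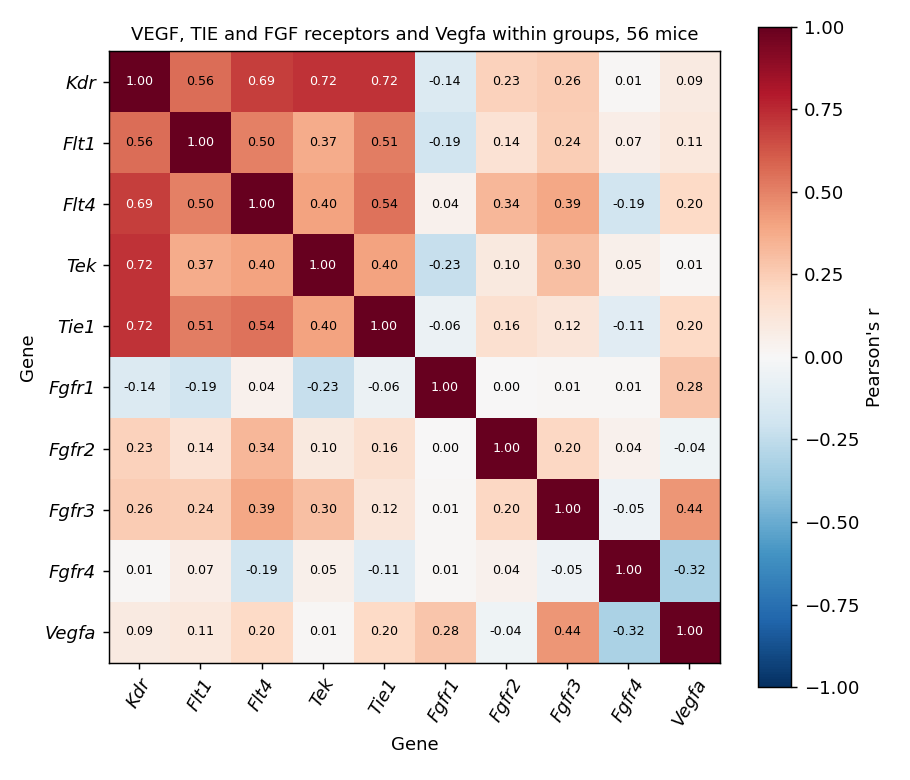
Pearson's r between each pair of the 10 genes over 56 mice after subtraction of each group's mean log2 CPM (both axes list the genes, red is positive and blue negative). The block of Kdr, Flt1, Flt4, Tek and Tie1 holds r from 0.37 to 0.72, and Vegfa is most like Fgfr3 among the members at 0.44.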

How the data were processed

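mRNA from liver of 56 mice was enriched with poly(A) selection and sequenced on an Illumina NextSeq 500. Per the labels and the submitters' processing notes, the authors aligned reads to GRCm38 with TopHat 2.0.14 and Bowtie 2.1.0, and deposited raw counts of reads per Ensembl gene from HTSeq 0.6.1p1, 1 table per mouse, without normalization. The strand setting and the annotation release are not given in the sources used here. Reads with several alignments were not assigned to genes, and the 5 summary lines per table stayed out of library sizes and tests. Reads without a feature were 5.11% to 10.4% of all lines, and non-unique alignments 31.7% to 42.6%.

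Symbols, positions and lengths came from GENCODE vM21 (GRCm38, 44671 of 45513 genes matched). Genes were filtered with filterByExpr and tested with edgeR 4.0.16 in R 4.3.3 (TMM, quasi-likelihood, 7 groups in 1 fit), with Benjamini-Hochberg adjustment over 14314 genes and a threshold of 0.05. Intervals are approximate, at 1.96 SE. TPM used merged exon length. Log2 CPM for correlations used a prior count of 2. Mice are separate animals, and the 8 mice of a group were taken as replicates. The fit was checked on simulated counts. Alternatives used limma 3.58.1 and DESeq2 1.42.0.

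The 10 genes and the gene lists were chosen with earlier results of these data known. Named genes were the 10 genes, up to 4 called genes of each list per comparison with the smallest p (up to 2 where none was called), and the 3 genes most correlated with each of the 10 within groups. Those of Fgfr2 are not reported here. The Tek promoter is shown beside those of the called genes Vegfa, Fgfr3 and Kdr, and genes with no printable upstream stretch or no RefSeq entry are named only.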

Additional observations from a re-analysis of the deposited data

Results flagged for a closer look

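Single mice far from the other 7 of their group were flagged on the log2 CPM scale by Dixon's test in 10 of the 70 gene and group pairs, where chance flags about 1 in 20. Ponatinib 10 mg/kg mouse 8 was low for Kdr (2.04), Flt4 (1.44) and Tie1 (1.10). Ponatinib 3 mg/kg mouse 13 was low for Kdr (2.69) and Tek (0.39). These mice also had the lowest and second lowest pan-endothelial marker mean of the 56 mice (1.88 and 2.76). Ponatinib 3 mg/kg mouse 17 was low for Flt1 (0.056, from 6 reads), and imatinib mouse 27 was high for Flt4 (5.28). L-NAME mouse 26 was low for Fgfr1 (1.56), nilotinib 10 mg/kg mouse 3 for Fgfr2 (5.21) and L-NAME mouse 45 for Fgfr4 (5.27).

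Treatments that differed from each other by a direct test were flagged for 4 results. Between ponatinib 10 and nilotinib 30 mg/kg the log2 difference was 0.81 for Fgfr3 and 0.61 for Vegfa. Between ponatinib 3 and nilotinib 10 mg/kg it was -1.05 for Kdr and -0.96 for Flt4 (edgeR, adjusted p = 0.00121, 0.0171, 0.0283 and 0.0289). All 8 ponatinib mice were below the nilotinib mean for Kdr and Flt4, and 7 of 8 and 8 of 8 above it for Fgfr3 and Vegfa.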

How the results depend on the processing

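Vegfa with ponatinib 10 mg/kg, and Vegfa and Fgfr3 between ponatinib 10 and nilotinib 30 mg/kg, passed under all 15 alternatives run. The number of the 10 genes called moved as follows, and the cause was not tested. With the share of reads outside genes as a covariate it was 0 with imatinib (1 in the fit reported), 1 with ponatinib 10 mg/kg (2), 0 with L-NAME (1), 0 between ponatinib 3 and nilotinib 10 mg/kg (2) and 3 between ponatinib 10 and nilotinib 30 mg/kg (2, with Tie1 added). With the endothelial marker mean as a covariate it was 0 between ponatinib 3 and nilotinib 10 mg/kg (2) and 1 between imatinib and nilotinib 30 mg/kg (0). limma-voom gave 4 with ponatinib 10 mg/kg, 1 between ponatinib 10 mg/kg and imatinib and 5 between ponatinib 10 and nilotinib 30 mg/kg (2). limma-voom with quality weights gave 4 with ponatinib 3 mg/kg (0), 5 with ponatinib 10 mg/kg, 1 between the ponatinib doses, 4 between ponatinib 10 and nilotinib 30 mg/kg and 3 between imatinib and nilotinib 30 mg/kg. DESeq2 gave 1 between the ponatinib doses and 4 between ponatinib 10 and nilotinib 30 mg/kg. At an unadjusted p below 0.01 it was 3 with ponatinib 3 mg/kg, 1 between the ponatinib doses, 2 between ponatinib 10 mg/kg and imatinib, 5 between ponatinib 10 and nilotinib 30 mg/kg and 1 between imatinib and nilotinib 30 mg/kg. Leaving out single libraries, chosen after the data were seen, gave 0 to 1 between the ponatinib doses and between ponatinib 10 mg/kg and imatinib, where Fgfr3 passed without ponatinib 10 mg/kg mouse 8, and 0 to 3 between ponatinib 3 and nilotinib 10 mg/kg, where 0 passed without ponatinib 3 mg/kg mouse 13. The log2 difference of Kdr between ponatinib 10 and nilotinib 30 mg/kg turned to 0.09 with the endothelial marker mean as a covariate (-0.74 in the fit reported, neither past the threshold). No paired analysis was possible because the mouse numbers in the labels are unique. At a median of 7570238 reads, Flt1 and Fgfr1 are the least precise.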
